A study of Mus musculus with 15 samples.

Results

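The comparison set 3 arrays of mouse chondrocyte cultures treated with U0126 directly against 3 arrays of cultures treated with SB202190, 6 of the 15 arrays of the series. The arrays were chosen by their titles, and every probe set whose mean log2 signal reached 5.64, a signal of 50, in either treatment was tested, which gave 34492 of 45037 probe sets. U0126, written UO126 in the labels, inhibits the kinases MEK1 and MEK2 that activate ERK. SB202190, written SB90 in the labels, is known as an inhibitor of the p38 kinases alpha and beta, although the text deposited with the series lists both compounds under the MEK and ERK pathway. Doses of these 2 compounds are not given in the sources used here. All cultures were primary monolayers of chondrocytes from the long bones of CD1 mouse embryos at embryonic day 15.5, and no genetic alteration is given. The other 9 arrays hold 3 each for LY294002, an inhibitor of PI3K, for Trichostatin A, an inhibitor of histone deacetylases, and for the vehicle DMSO, which gives the level without either inhibitor. The sample labels give 24 h of treatment, as does the study for its DMSO and LY294002 cultures, whereas the series text gives 2 h. The replicates are described as 3 biological replicates, and the array code of U0126 replicate 1 alone ends in an added letter whose meaning is not given.

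Chondrocytes of the growth plate divide, enlarge into hypertrophic cells and mineralize their matrix before bone replaces it. MEK and ERK carry signals of fibroblast and epidermal growth factors to the nucleus, where they induce their own inhibitors, and sustained ERK activity in cartilage is known to restrain growth and hypertrophy. p38 answers cytokines, stress and BMP and TGF-beta signals, and it is known to favour hypertrophic maturation through the transcription factor MEF2C.

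The 6 arrays were closely alike, with correlations of at least 0.995 among U0126 arrays, at least 0.9966 among SB202190 arrays and between 0.9917 and 0.9948 from one treatment to the other. Median signals of the 6 arrays lay between 6.94 and 6.98. In limma's linear model over all 15 arrays, 926 probe sets (2.68% of those tested) were higher and 874 (2.53%) lower with U0126 than with SB202190 at an adjusted p of 0.05, representing 658 and 631 named genes. With the replicate number as a block these became 1421 (4.12%) and 1742 (5.05%), and they included all of the first 926 and 874. These shares are the background for every count of list members called between U0126 and SB202190 given further on. Over all probe sets tested the median difference was 0.0084 on the log2 scale, and 52.6% of differences were positive. The U0126 and SB202190 arrays did not overlap for 21.7% of the probe sets tested.

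Changes of 1.4-fold, the size the study used, were seen for 615 probe sets that were higher with U0126, 571 of them called, and 603 that were lower, 489 of them called. At 2-fold there were 112 higher and 65 lower, and at 4-fold 4 higher and 3 lower. Against the same 3 DMSO arrays, U0126 gave 393 probe sets higher (1.14%) and 274 lower (0.794%), while SB202190 gave 426 higher (1.24%) and 244 lower (0.707%). List members called against DMSO have these shares as their background. Of the 926 probe sets called higher with U0126 than with SB202190, 279 were also called higher in U0126 than in DMSO, 166 were called lower in SB202190 than in DMSO, 44 were in both sets and 525 in neither. Of the 874 called lower, the same 4 counts were 168, 238, 15 and 483. These comparisons share the SB202190, U0126 or DMSO arrays, so their overlap is not independent.

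**Figure D1:**
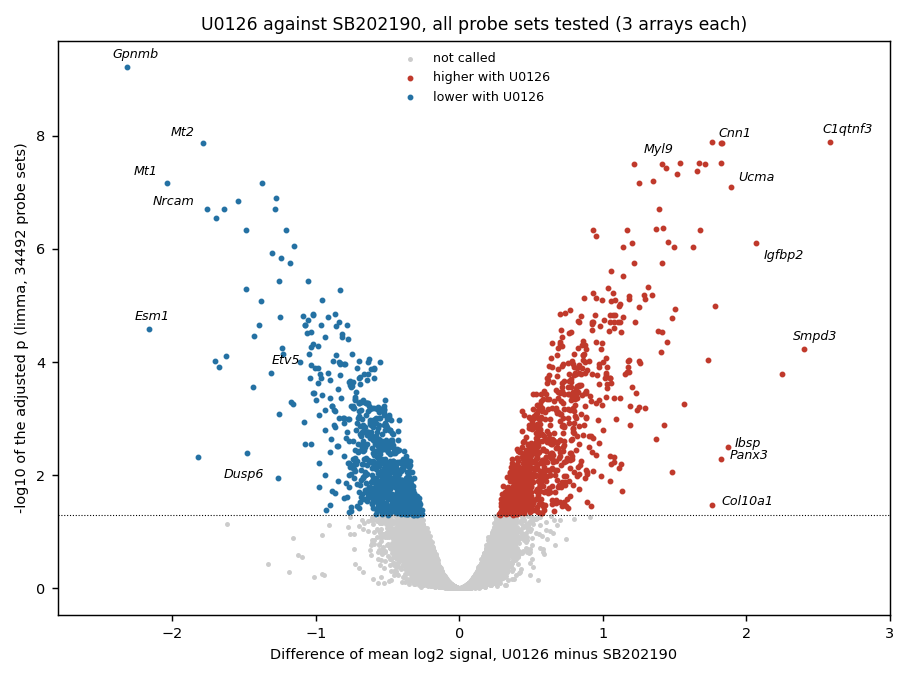
Difference of the mean log2 signal, U0126 minus SB202190 (x axis), against -log10 of the limma adjusted p (y axis) for the 34492 probe sets tested, with 3 arrays per treatment and the dotted line at an adjusted p of 0.05. The 926 probe sets called higher reach a difference of 2.58 (C1qtnf3) and the 874 called lower reach -2.32 (Gpnmb).

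Of 20 genes of ERK feedback and ETS factors 8 were lower with U0126, while the kinases themselves did not pass the test at the RNA level. Dusp6, the phosphatase that removes phosphate from ERK, had log2 signals of 9.19, 9.43 and 9.02 with U0126, against 10.93, 10.49 and 10.01 with SB202190 and 10.37, 10.17 and 10.07 in DMSO. Every U0126 array lay below every SB202190 array and below every DMSO array. Dusp6 was 2.4-fold lower with U0126 than with SB202190 (log2 difference -1.26 ± 0.28 SE, adjusted p = 0.011). Its adjusted p was 4.23e-05 with the replicate block and the call was lost without U0126 replicate 3 or SB202190 replicate 1 (adjusted p up to 0.0791).

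Etv5, an ETS transcription factor that follows ERK activity, had 8.37, 8.42 and 8.46 with U0126, against 9.33, 9.40 and 9.53 with SB202190 and 9.21, 9.03 and 8.92 in DMSO, with no overlap between any 2 treatments. It was 2.01-fold lower (log2 difference -1.01 ± 0.13 SE, adjusted p = 0.000128). Spry2, an inhibitor of receptor tyrosine kinase signaling, gave 8.11, 7.75 and 7.57 with U0126, against 8.98, 8.82 and 8.56 with SB202190 and was 1.97-fold lower (log2 difference -0.98 ± 0.23 SE, adjusted p = 0.0163), a call lost without any 1 of 4 arrays (adjusted p up to 0.0947) and not made on its other probe set. Dusp4, a nuclear phosphatase of the Dusp6 family, gave 5.36, 5.35 and 5.65 with U0126, against 6.27, 6.19 and 6.43 with SB202190. It was tested through its SB202190 level alone, since the U0126 mean of 5.45 lay below the filter level of 5.64. Counted from that level it was at least 1.57-fold lower. The limma adjusted p of 0.000959 belongs to the full difference of -0.84, which uses the values below that level. The U0126 and SB202190 arrays did not overlap for either gene.

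Of 20 tested genes of ERK feedback and ETS factors, none was higher with U0126, 8 were lower and 12 did not pass, with a median difference of -0.19 against 0.0084 for all probe sets and 2.53% of all probe sets called lower. Without U0126 replicate 3 or SB202190 replicate 1 the 8 became 5, and with the replicate block 9. Beyond the 4 above the lower members were Phlda1 (-0.68), Spred2 (-0.57), the AP-1 subunit Fosl1 (-0.54) and Il17rd (-0.44), a call of Il17rd that was lost without 1 array (adjusted p up to 0.152). For Spred2, 3 of the 4 other probe sets had the opposite sign, and no other probe set of Fosl1 or Il17rd was called. Dusp5, a nuclear phosphatase of ERK, had a difference of -0.91 and passed only with the replicate block (adjusted p = 0.0761 without it and 0.000971 with it). Against DMSO, 3 of the 20 were lower with U0126, beside 0.794% of all probe sets. Il17rd alone was higher with SB202190 (log2 difference 0.62, adjusted p = 0.00719), beside 1.24% of all probe sets. For Dusp6 the differences from DMSO were -0.99 for U0126 minus DMSO (adjusted p = 0.0898) and 0.27 for SB202190 minus DMSO (adjusted p = 0.792).

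Most immediate early genes, which ERK and p38 both induce within minutes, did not pass without the replicate block. Egr1, a zinc finger factor singled out after its values were seen, had 11.60, 11.69 and 10.04 with U0126, against 13.13, 13.18 and 11.88 with SB202190 and 12.15, 12.15 and 11.69 in DMSO. Replicate 3 was the lowest array of each treatment. The highest U0126 array lay just below the lowest SB202190 array, both treatments overlapped DMSO, and within each replicate number U0126 lay below DMSO and DMSO below SB202190. The difference of -1.62 (SE 0.49) did not pass without the replicate block (adjusted p = 0.0728) and passed with it (adjusted p = 1.32e-05).

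Across 30 immediate early genes tested, 1 was higher and 1 lower without the block, and 2 were higher and 8 lower with it, beside 2.68% and 2.53% of all probe sets without the block and 4.12% and 5.05% with it, with a median difference of -0.06. The lower gene without the block was Klf10, a TGF-beta inducible factor, at 8.96, 8.27 and 8.94 with U0126, against 9.52, 9.38 and 9.46 with SB202190 (log2 difference -0.73 ± 0.15 SE, adjusted p = 0.00785), and its U0126 arrays all lay below its SB202190 arrays. The higher one was Klf2, at 10.04, 10.16 and 10.02 with U0126, against 9.61, 9.71 and 9.21 with SB202190 (log2 difference 0.57 ± 0.16 SE, adjusted p = 0.0473), with no overlap and a call lost without any 1 of 5 arrays, with median centring or with no filter (adjusted p up to 0.246). The genes that passed with the block alone were Egr1, Egr2 (-0.96), Fos (-1.01), Ier2 (-1.10), Junb (-0.72), Klf6 (-0.46) and Ier3 (-0.37) among the lower and Ccn2 (0.33) among the higher. Nr4a1, an orphan nuclear receptor that the study follows up, had 9.83, 10.11 and 9.54 with U0126, against 9.80, 9.98 and 8.72 with SB202190, and its arrays overlapped (log2 difference 0.32, adjusted p = 0.885).

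None of the MEK and p38 kinase transcripts was called. Map2k1 and Map2k2, which encode MEK1 and MEK2, differed by -0.12 (adjusted p = 0.731) and -0.08 (adjusted p = 0.779), and the p38 genes Mapk14, Mapk11, Mapk12 and Mapk13 by -0.11, 0.08, 0.14 and -0.16 (adjusted p = 0.835, 0.827, 0.815 and 0.406). Of 13 ERK pathway kinases and scaffolds tested, Map2k1 and Map2k2 among them, none was called by limma with or without the block, and 4 had an unadjusted p of 0.05 or less. Shc1 (-0.24) and Braf (0.21) had the largest differences of the 13. RNA levels say nothing of kinase activity, which was not measured.

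Around p38, 4 of 24 tested kinases and substrates were called, in opposite directions. Map2k6, which encodes the kinase MKK6 that activates p38, had 8.56, 8.40 and 8.19 with U0126, against 9.42, 9.34 and 9.28 with SB202190 and 8.35, 8.03 and 8.0 in DMSO. The SB202190 arrays stood above all the others, while U0126 and DMSO overlapped. Map2k6 was 1.95-fold lower with U0126 than with SB202190 (log2 difference -0.97 ± 0.13 SE, adjusted p = 0.000194), and its differences from DMSO were 0.26 for U0126 minus DMSO (adjusted p = 0.568) and 1.22 for SB202190 minus DMSO (adjusted p = 0.000105). Mknk2, a kinase downstream of ERK and p38, was also lower with U0126, at 10.74, 10.61 and 10.55 with U0126, against 11.33, 11.18 and 11.25 with SB202190 (log2 difference -0.62 ± 0.10 SE, adjusted p = 0.00126). Mef2c, whose protein p38 phosphorylates, was higher at 10.22, 9.97 and 10.45 with U0126, against 9.40, 9.41 and 9.43 with SB202190 (log2 difference 0.80 ± 0.14 SE, adjusted p = 0.00178), and so was Hspb1, the small heat shock protein phosphorylated downstream of p38, at 11.10, 11.05 and 11.04 with U0126, against 10.44, 10.54 and 10.40 with SB202190 (log2 difference 0.61 ± 0.08 SE, adjusted p = 0.000237). Neither gene's U0126 arrays overlapped its SB202190 arrays. Under the block the lower members numbered 4 in place of 2, the added ones being Map3k5 (-0.34) and Dusp10 (-0.29).

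Most of the cartilage matrix genes tested were higher with U0126 than with SB202190. Of 27 genes tested, 17 passed as higher and 10 did not pass in either direction, with a median difference of 0.67 and 26 positive differences, beside 2.68% of all probe sets called higher. Leaving out U0126 replicate 3 or SB202190 replicate 1 gave 11 calls in place of 17. Against DMSO 8 were higher with U0126 and none with SB202190, while Prg4 was lower with U0126, and Prg4, Ucma and Fmod were lower with SB202190. The shares of all probe sets were 1.14% and 1.24% higher, and 0.794% and 0.707% lower, for U0126 and SB202190 in turn. In cultures measured as a whole, fewer cells of a type and less RNA per cell cannot be told apart.

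Ucma, a small secreted protein of resting and early differentiating chondrocytes, had 11.08, 11.02 and 11.18 with U0126, against 9.13, 9.12 and 9.35 with SB202190 and 10.68, 10.48 and 10.66 in DMSO. The SB202190 arrays lay far below the rest and the U0126 arrays just above DMSO, a 3.71-fold higher level with U0126 (log2 difference 1.89 ± 0.12 SE, adjusted p = 8e-08). Its differences from DMSO were 0.49 for U0126 minus DMSO (adjusted p = 0.0559) and -1.41 for SB202190 minus DMSO (adjusted p = 1.62e-05). Fmod, the collagen-binding proteoglycan fibromodulin, had 11.91, 11.93 and 12.20 with U0126, against 10.27, 10.56 and 10.73 with SB202190 and 10.95, 11.08 and 11.03 in DMSO on its brightest probe set, with no overlap between treatments. That was 2.82-fold higher (log2 difference 1.5 ± 0.12 SE, adjusted p = 9.39e-07), and on the probe set with the largest change it was 3.54-fold higher (log2 difference 1.83 ± 0.10 SE, adjusted p = 1.36e-08), with all of its 5 other probe sets called the same way.

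Col9a2, a chain of the collagen IX that coats collagen II fibrils, had 9.98, 10.65 and 10.26 with U0126, against 8.87, 9.0 and 9.24 with SB202190 and was 2.39-fold higher (log2 difference 1.26 ± 0.16 SE, adjusted p = 0.000105). Matn3, a matrilin that bridges matrix fibrils, had 12.74, 12.75 and 13.28 with U0126, against 11.41, 11.67 and 12.09 with SB202190 and 12.33, 12.33 and 12.53 in DMSO and was 2.3-fold higher (log2 difference 1.20 ± 0.17 SE, adjusted p = 0.000281). For Acan, the aggrecan core protein that holds water in cartilage, the arrays gave 12.95, 12.89 and 13.30 with U0126, against 11.82, 12.04 and 12.13 with SB202190 and 12.26, 12.21 and 12.48 in DMSO. All 3 genes had U0126 arrays wholly above SB202190 arrays, and Acan was 2.07-fold higher (log2 difference 1.05 ± 0.14 SE, adjusted p = 0.000194).

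The other called members ranged from 0.49 (Epyc) to 0.89 (Col11a2) and included the link protein gene Hapln1 (0.77), Comp (0.77), Matn1 (0.75) and the growth-restraining receptor Fgfr3 (0.68). The calls of Col11a2, Col9a3, Comp, Cnmd, Prelp and Matn4 were each lost without at least 1 array, and that of Col11a2 also with quantile normalization, with adjusted p up to 0.174, 0.0718, 0.147, 0.0791, 0.166 and 0.0955. Col2a1 itself, the main cartilage collagen, was at 14.43, 14.40 and 14.42 with U0126, against 14.33, 14.39 and 14.36 with SB202190, near the highest value of any array (14.4), and although the arrays did not overlap the difference did not pass (log2 difference 0.05 ± 0.08 SE, adjusted p = 0.872). The SOX factors that activate it did not pass either, with 0.33 for Sox9, 0.01 for Sox5 and 0.25 for Sox6 (adjusted p = 0.338, 0.988 and 0.189). Prg4, the lubricin of the joint surface, was at 7.90, 7.88 and 7.52 with U0126, against 7.52, 7.77 and 7.26 with SB202190 and 9.42, 9.30 and 9.29 in DMSO. It was thus lower than DMSO with each compound (-1.57 with U0126, adjusted p = 0.000545, and -1.82 with SB202190, adjusted p = 0.000232) and did not pass in the direct comparison (adjusted p = 0.73).

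Hypertrophy and mineralization genes had the highest median difference of the 28 pathway lists. Of 18 tested, 11 were higher with U0126, 1 was lower and 6 did not pass, with a median difference of 0.84 beside 2.68% and 2.53% of all probe sets. For 14 of the 18 the DMSO mean lay between the U0126 and SB202190 means. The same held for 21 of 27 cartilage matrix genes and 24 of 37 cell cycle genes tested. The share over all probe sets was not counted. Against DMSO, 3 were higher and 1 lower with U0126, and 2 were lower with SB202190, beside 1.14%, 0.794% and 0.707% of all probe sets.

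Ihh, the hedgehog ligand that prehypertrophic cells secrete, had 8.16, 8.16 and 9.22 with U0126, against 6.87, 6.86 and 7.11 with SB202190 and 7.14, 7.34 and 7.81 in DMSO. The lowest U0126 array lay above the highest DMSO array, and the highest SB202190 array lay below the lowest DMSO array. Ihh was 2.96-fold higher with U0126 than with SB202190 (log2 difference 1.57 ± 0.24 SE, adjusted p = 0.000543), with differences from DMSO of 1.08 for U0126 minus DMSO (adjusted p = 0.0226) and -0.49 for SB202190 minus DMSO (adjusted p = 0.426). Pth1r, the receptor that holds back hypertrophy in a loop with Ihh, had 10.44, 10.56 and 10.99 with U0126, against 9.38, 9.53 and 9.94 with SB202190 with no overlap (log2 difference 1.05 ± 0.20 SE, adjusted p = 0.00448).

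Col10a1, the collagen of hypertrophic cartilage, had 11.02, 11.22 and 12.47 with U0126, against 9.25, 9.60 and 10.58 with SB202190 and 9.63, 10.13 and 11.36 in DMSO. Replicate 3 was the highest array in each treatment, and within each replicate number U0126 lay above DMSO and DMSO above SB202190. The difference of 1.76 ± 0.46 SE (3.39-fold higher) had an adjusted p of 0.0329, or 8.76e-09 with the replicate block, and over all alternatives it ran between 8.54e-11 and 0.202. In fits without the block, the call was lost without U0126 replicate 2 or 3 or SB202190 replicate 1 or 2. Quantile normalization or a robust prior also ended it.

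Panx3, a channel protein of hypertrophic chondrocytes and osteoblasts, had 10.52, 10.38 and 11.04 with U0126, against 8.45, 8.60 and 9.43 with SB202190 and 9.67, 9.37 and 9.96 in DMSO and was 3.54-fold higher (log2 difference 1.82 ± 0.36 SE, adjusted p = 0.00524), while its other probe set was not called. Ibsp, bone sialoprotein, had 12.01, 11.78 and 11.84 with U0126, against 10.05, 10.36 and 10.78 with SB202190 and 11.95, 11.64 and 11.24 in DMSO on its brightest probe set, so that U0126 overlapped DMSO and only SB202190 stood apart. It was 2.79-fold higher with U0126 than with SB202190 (log2 difference 1.48 ± 0.32 SE, adjusted p = 0.00868, up to 0.0593 without SB202190 replicate 1), and 3.66-fold higher on its other probe set (log2 difference 1.87 ± 0.35 SE, adjusted p = 0.00317).

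Alpl, the alkaline phosphatase that frees phosphate for mineral, had 9.88, 10.07 and 10.37 with U0126, against 8.75, 8.85 and 9.17 with SB202190 (log2 difference 1.18 ± 0.15 SE, adjusted p = 9.09e-05). Among transcription factors of hypertrophy, Sp7 was higher at 8.50, 8.56 and 8.72 with U0126, against 7.48, 7.62 and 7.91 with SB202190 (log2 difference 0.93 ± 0.12 SE, adjusted p = 0.000164) and Runx3 at 8.73, 8.41 and 8.82 with U0126, against 7.61, 7.67 and 8.03 with SB202190 (log2 difference 0.88 ± 0.14 SE, adjusted p = 0.000947), next to Mef2c above, whereas Dlx5 and Dlx6 did not pass. Alpl, Sp7 and Runx3 had no overlapping U0126 and SB202190 arrays. Runx2, Pthlh, Spp1, Phospho1, Enpp1 and Bglap, also on the list of 24 genes, were not matched to a probe set and were not tested. Ank, which exports the mineralization inhibitor pyrophosphate, was the exception at 10.05, 10.02 and 10.14 with U0126, against 10.80, 11.04 and 10.94 with SB202190 and 11.05, 11.01 and 10.91 in DMSO, 1.81-fold lower with U0126 (log2 difference -0.86 ± 0.09 SE, adjusted p = 2.3e-05), with SB202190 near DMSO (-0.06, adjusted p = 0.874). Mmp13, Vegfa, Sparc and Tgm2 did not pass either, and of these Tgm2 (0.54) passed with the block (adjusted p = 0.000446).

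The study follows up 4 genes, of which F13a1 and Phlda2 passed here and are counted in the list above, so their part in its count is not independent of the study's choice. F13a1, the transglutaminase factor XIII A found in hypertrophic cartilage, had 7.99, 7.70 and 7.80 with U0126, against 6.61, 6.73 and 6.78 with SB202190 and 8.57, 8.30 and 8.44 in DMSO. The 3 treatments did not overlap, and DMSO was the highest. F13a1 was 2.18-fold higher with U0126 than with SB202190 (log2 difference 1.12 ± 0.16 SE, adjusted p = 0.000432), and its differences from DMSO were -0.61 for U0126 minus DMSO (adjusted p = 0.0752) and -1.73 for SB202190 minus DMSO (adjusted p = 2.85e-05). Phlda2, an imprinted gene known for limiting placental growth, had 8.27, 8.20 and 8.51 with U0126, against 7.81, 7.83 and 8.07 with SB202190 and 8.36, 8.34 and 8.50 in DMSO, with U0126 overlapping DMSO and SB202190 below it. It was 1.34-fold higher (log2 difference 0.43 ± 0.10 SE, adjusted p = 0.0203), a call lost without any 1 of 3 arrays (adjusted p up to 0.131). The aggrecanase gene Adamts5 gave 10.30, 9.86 and 9.95 with U0126, against 9.96, 9.86 and 9.73 with SB202190 and did not pass (log2 difference 0.19 ± 0.15 SE, adjusted p = 0.708), as was the case for Nr4a1 above.

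**Figure D2:**
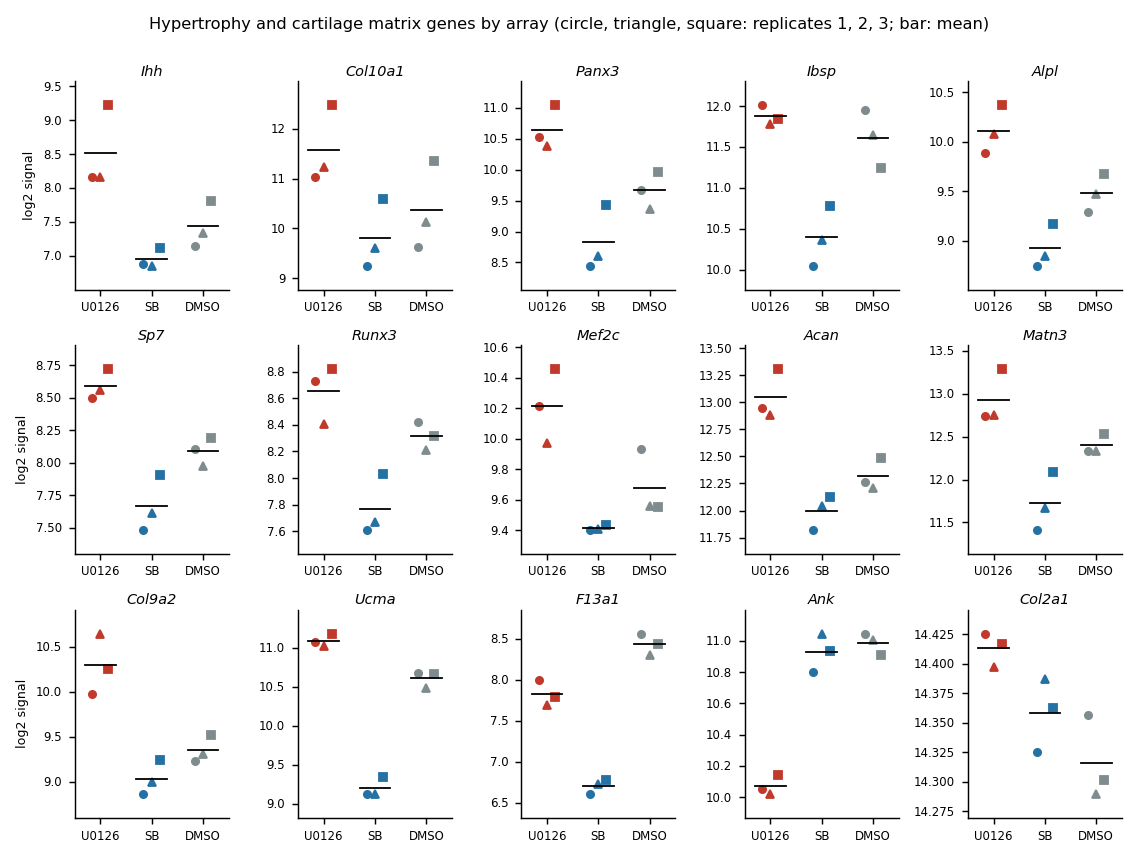
Log2 signal (y axis, its own range in each panel) of 15 genes of hypertrophy and cartilage matrix in the 3 arrays each of U0126, SB202190 (SB) and DMSO, with circle, triangle and square for replicates 1, 2 and 3 and a bar at the mean. In 14 panels the U0126 arrays lie above all SB202190 arrays and in Ank below them. All panels but Col2a1 show called genes, so this separation follows largely from their choice. Over the whole lists, the arrays did not overlap for 22 of 27 cartilage matrix and 15 of 18 hypertrophy genes tested, beside 21.7% of all probe sets. In Col2a1 all 9 arrays lie between 14.29 and 14.43.

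Among genes of contractile smooth muscle and actin fibres, many of them known targets of the transcription factor SRF, 9 of 25 tested were higher with U0126 and none was lower, with a median of 0.28 beside 2.68% of all probe sets called higher, and each fit without 1 array also called 9, that with the replicate block 10. All but Csrp1 were also higher with U0126 than in DMSO, as was Fhl2, whereas SB202190 gave none higher than DMSO and 2 lower, Cnn1 and Myl9. Of all probe sets 1.14% were higher with U0126 than in DMSO, and 0.707% were lower with SB202190.

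Cnn1, the actin-binding protein calponin, had 8.85, 8.92 and 8.74 with U0126, against 7.16, 6.96 and 7.11 with SB202190 and 7.63, 7.83 and 7.89 in DMSO, with every treatment apart from the others. It was 3.38-fold higher (log2 difference 1.76 ± 0.09 SE, adjusted p = 1.3e-08), with differences from DMSO of 1.05 for U0126 minus DMSO (adjusted p = 9.84e-06) and -0.71 for SB202190 minus DMSO (adjusted p = 0.000463). Myl9, the regulatory light chain of smooth muscle myosin, had 12.14, 11.97 and 11.90 with U0126, against 10.49, 10.64 and 10.65 with SB202190 and 10.95, 10.94 and 10.91 in DMSO and was 2.66-fold higher (log2 difference 1.41 ± 0.08 SE, adjusted p = 3.14e-08). Again no 2 treatments overlapped.

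Actg2, smooth muscle gamma actin, had 10.31, 9.92 and 10.09 with U0126, against 8.74, 8.75 and 8.98 with SB202190 (log2 difference 1.28 ± 0.12 SE, adjusted p = 6.47e-06), and Mylk, the kinase that phosphorylates Myl9, had 11.0, 10.69 and 10.64 with U0126, against 9.91, 9.89 and 9.62 with SB202190 (log2 difference 0.97 ± 0.16 SE, adjusted p = 0.00104). Acta2, smooth muscle alpha actin, had 13.51, 13.22 and 13.38 with U0126, against 12.58, 12.52 and 12.68 with SB202190 and 12.69, 12.67 and 12.56 in DMSO, with SB202190 and DMSO overlapping and U0126 above them (log2 difference 0.78 ± 0.11 SE, adjusted p = 0.000221). The remaining called members were Fhl1 (0.70), Lmod1 (0.68), Csrp1 (0.50) and Tagln (0.47). Srf itself (-0.04), Acta1 (-0.01) and Actb (-0.01) did not pass (adjusted p = 0.966, 0.995 and 0.985).

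The 250 bases before the start of Myl9 are shown because they hold a CArG box, the sequence that SRF binds, beside one of the largest changes of the list. In the RefSeq promoter windows (GRCm38.p6), searched on both strands, a CArG box stands in 1.47% of 32851 windows of this length and in those of 6 of the 21 list members that have a window, 2 of 7 called (Myl9 and Fhl1) and 4 of 14 not called (Acta1, Cnn2, Fhl2 and Vcl). Capitals mark the match, which begins 161 bases before the start (chr2:156775214-156775463, plus strand).
Myl9: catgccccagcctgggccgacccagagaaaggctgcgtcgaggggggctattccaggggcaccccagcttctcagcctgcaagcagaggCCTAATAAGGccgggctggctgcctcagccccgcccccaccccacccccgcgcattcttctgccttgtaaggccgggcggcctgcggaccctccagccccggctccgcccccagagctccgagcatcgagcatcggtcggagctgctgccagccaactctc
A match describes the letters in the window and is no evidence of binding, and Cnn1 had no match in its window.

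The metallothioneins, small proteins that bind zinc and copper, separated the treatments in the other direction. Mt1 had 10.14, 10.52 and 10.60 with U0126, against 12.46, 12.28 and 12.64 with SB202190 and 11.32, 11.37 and 11.35 in DMSO. Mt2 had 10.38, 10.63 and 10.56 with U0126, against 12.45, 12.16 and 12.32 with SB202190 and 11.46, 11.47 and 11.39 in DMSO. For both genes the U0126 arrays all lay below DMSO and the SB202190 arrays all above it. With U0126, Mt1 was 4.11-fold lower (log2 difference -2.04 ± 0.13 SE, adjusted p = 6.74e-08) and Mt2 3.45-fold lower (log2 difference -1.79 ± 0.10 SE, adjusted p = 1.36e-08) than with SB202190. The differences of Mt1 from DMSO were -0.93 for U0126 minus DMSO (adjusted p = 0.00079) and 1.11 for SB202190 minus DMSO (adjusted p = 0.00025), and those of Mt2 were -0.91 for U0126 minus DMSO (adjusted p = 4.97e-05) and 0.87 for SB202190 minus DMSO (adjusted p = 0.000122). A further probe set of Mt1 was not called.

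The 2 genes are neighbours, and the 250 bases before each start are shown because metals act on them through metal response elements, whose core is TGCACNC or TGCGCNC. This core, searched on both strands, is found in 21.4% of the 32851 RefSeq windows and in those of 6 of the 15 members of the antioxidant list that have a window (Gclm, Gstm1, Mt1, Mt2, Pgd and Srxn1). Capitals mark the core, once in Mt1 (chr8:94178839-94179088, plus strand) and 3 times in Mt2 (chr8:94172368-94172617, plus strand), the last on the opposite strand, and 1.26% of all windows hold 3 or more.
Mt1: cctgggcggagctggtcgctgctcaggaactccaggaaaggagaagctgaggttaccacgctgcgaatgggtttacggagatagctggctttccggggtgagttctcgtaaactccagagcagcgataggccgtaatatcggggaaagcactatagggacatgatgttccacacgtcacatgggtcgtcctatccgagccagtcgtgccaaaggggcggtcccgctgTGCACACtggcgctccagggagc
Mt2: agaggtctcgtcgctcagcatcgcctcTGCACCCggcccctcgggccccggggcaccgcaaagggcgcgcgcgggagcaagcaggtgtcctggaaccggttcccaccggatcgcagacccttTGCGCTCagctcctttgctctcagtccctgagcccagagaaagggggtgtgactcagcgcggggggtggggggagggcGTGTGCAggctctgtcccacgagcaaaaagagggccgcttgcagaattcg
No binding was measured here.

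Of 19 antioxidant and metallothionein genes tested, none was higher and 5 were lower with U0126, with a median of -0.20 and 17 negative differences, beside 2.53% of all probe sets called lower. Leaving out 1 array gave 2 (without U0126 replicate 2 or SB202190 replicate 2) or 3 (without U0126 replicate 3 or SB202190 replicate 1 or 3), and median centring gave 3, whereas the replicate block gave 7 beside 5.05% of all probe sets. Besides the metallothioneins these were Gsta4, a glutathione transferase (log2 difference -0.58 ± 0.13 SE, adjusted p = 0.011), Gclc, the rate-limiting enzyme of glutathione synthesis (log2 difference -0.50 ± 0.13 SE, adjusted p = 0.0363), and Srxn1, which repairs peroxiredoxins (log2 difference -0.36 ± 0.10 SE, adjusted p = 0.045). The calls of these 3 were lost without 1 array (adjusted p up to 0.0674, 0.194 and 0.203). Against DMSO, 9 of the 19 were higher with SB202190 and 2 with U0126, Srxn1 and Gstm1, beside 1.24% and 1.14% of all probe sets. The median difference from DMSO was 0.42 for SB202190 and 0.16 for U0126. Gstm1, a glutathione transferase, was 0.76 above DMSO with U0126 (adjusted p = 0.00042) and 0.86 with SB202190 (adjusted p = 0.000206), and did not pass between them.

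Of 26 lysosome and autophagy genes tested, 7 were lower with U0126 and none higher, with a median of -0.20 and 21 negative differences, beside 2.53% of all probe sets called lower. The 7 became 8 with the replicate block, 4 without U0126 replicate 2 or SB202190 replicate 3, and 11 with quantile normalization. Against DMSO, 6 were higher with SB202190 (beside 1.24% of all probe sets) and none lower. U0126 gave 1 higher (Ulk1, beside 1.14%) and 1 lower (Mitf, beside 0.794%). Mitf, a transcription factor of the family that drives lysosome genes, had 8.71, 8.44 and 8.52 with U0126, against 9.62, 9.62 and 9.59 with SB202190 and 9.89, 9.71 and 9.87 in DMSO. Its U0126 arrays lay below all the others (log2 difference -1.05 ± 0.09 SE, adjusted p = 3.64e-06), SB202190 was near DMSO (-0.21, adjusted p = 0.371), and its other probe set was not called.

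Gla, the lysosomal alpha-galactosidase, had 7.92, 7.55 and 8.20 with U0126, against 8.71, 8.64 and 9.12 with SB202190 (log2 difference -0.93 ± 0.15 SE, adjusted p = 0.000707), and Ctsb, the protease cathepsin B, had 11.97, 11.81 and 11.95 with U0126, against 12.40, 12.47 and 12.63 with SB202190 (log2 difference -0.59 ± 0.10 SE, adjusted p = 0.00101). Gabarapl1, a coat protein of autophagosomes, had 10.49, 10.47 and 10.59 with U0126, against 10.89, 10.93 and 11.12 with SB202190 (log2 difference -0.47 ± 0.09 SE, adjusted p = 0.00291). None of the 3 overlapped between the treatments. The smaller differences of Ctsl (-0.44), Glb1 (-0.38) and Ctsa (-0.37) lost their calls without 1 array (adjusted p up to 0.111, 0.196 and 0.112). The macrophage list, whose cells are rich in lysosomes, had 1 of 14 tested members lower with U0126, Cd68 (-0.72), and its summed linear signal was 2891 to 3338 with U0126, 3209 to 3551 with SB202190 and 3313 to 4368 in DMSO. Of its 19 members, 5 were below the tested level, among them the defining genes Ptprc and Itgam.

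The upstream bases of Gla and Glb1 are shown because they hold TCACGTG, the core of the element that MITF-family factors bind in lysosome genes. It stands, on either strand, in 3.13% of the 32851 windows and in those of 6 of the 23 list members with a window, 3 of 6 called (Gla, Glb1 and Ctsa) and 3 of 17 not called (Ctsd, Lamp1 and Mcoln1). Capitals mark it, in 2 runs on both strands in Gla (chrX:134601006-134601255, minus strand) and once in Glb1 (chr9:114400828-114401077, plus strand).
Gla: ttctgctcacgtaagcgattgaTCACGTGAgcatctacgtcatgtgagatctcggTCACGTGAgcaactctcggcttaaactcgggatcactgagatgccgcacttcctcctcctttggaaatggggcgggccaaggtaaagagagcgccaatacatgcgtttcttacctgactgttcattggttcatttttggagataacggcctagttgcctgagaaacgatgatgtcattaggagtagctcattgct
Glb1: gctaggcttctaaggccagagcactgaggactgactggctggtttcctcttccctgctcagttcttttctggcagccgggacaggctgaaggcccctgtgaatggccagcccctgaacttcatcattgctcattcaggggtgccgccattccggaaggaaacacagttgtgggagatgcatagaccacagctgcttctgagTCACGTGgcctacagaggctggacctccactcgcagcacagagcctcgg
These counts are descriptions with no test.

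**Figure D3:**
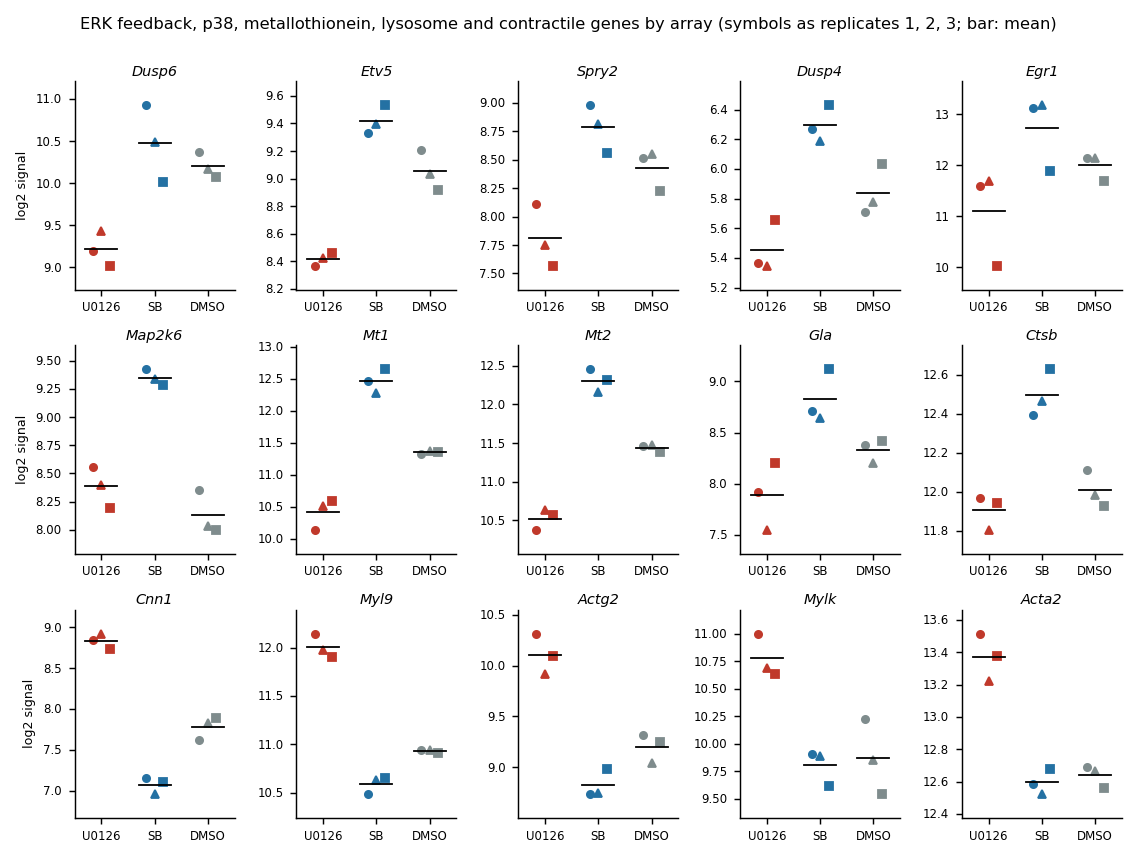
Log2 signal (y axis, its own range in each panel) of 15 genes of ERK feedback, p38, metallothioneins, lysosomes and contraction in the 3 arrays each of U0126, SB202190 (SB) and DMSO, with circle, triangle and square for replicates 1, 2 and 3 and a bar at the mean. Mt1 and Mt2 lie on opposite sides of DMSO in the 2 treatments, Map2k6 is set apart by SB202190, Acta2 and Mylk by U0126, and in Egr1 replicate 3 is the lowest array of each treatment.

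In TGF-beta and BMP signaling, 8 of 41 tested members were higher and 8 lower with U0126, beside 2.68% and 2.53% of all probe sets, and 9 and 8 with the replicate block. The 8 lower became 5 without U0126 replicate 2 or 3 or SB202190 replicate 1 or 2. Nog, the BMP antagonist noggin, had 7.93, 8.08 and 8.57 with U0126, against 6.63, 6.71 and 7.0 with SB202190 and 7.18, 7.22 and 7.40 in DMSO, no 2 treatments overlapping, and was 2.66-fold higher (log2 difference 1.41 ± 0.16 SE, adjusted p = 2.93e-05). The other higher members were the antagonists Fst (0.76) and Grem1 (0.44), the ligands Tgfb3 (0.73), Bmp6 (0.73), Inhba (0.72) and Bmp4 (0.68), and the target Tgfbi (0.55).

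Id1, Id2 and Id3, inhibitors of differentiation that BMP induces, were lower. Id2 had 10.46, 10.42 and 10.32 with U0126, against 11.60, 11.29 and 11.32 with SB202190 and 10.80, 10.73 and 10.56 in DMSO, with no 2 treatments overlapping (log2 difference -1.0 ± 0.15 SE, adjusted p = 0.00047), and Id1 had 10.43, 10.36 and 10.20 with U0126, against 11.31, 11.11 and 11.24 with SB202190 and 11.14, 10.94 and 10.83 in DMSO, the U0126 arrays below all others (log2 difference -0.88 ± 0.13 SE, adjusted p = 0.000603). Id3 differed by -0.69. Tgfbr3, the co-receptor betaglycan, was lower at 10.65, 10.53 and 10.50 with U0126, against 11.50, 11.41 and 11.32 with SB202190 (log2 difference -0.85 ± 0.12 SE, adjusted p = 0.000301), along with the latency proteins Ltbp3 (-0.66) and Ltbp1 (-0.48) and the inhibitory Smad7 (-0.44) and Smad6 (-0.36). Calls of Ltbp1, Smad7, Smad6, Grem1, Tgfbi and Bmp6 were lost without 1 array (adjusted p up to 0.111, 0.163, 0.192, 0.101, 0.0801 and 0.0504).

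Among Wnt genes 7 of 37 tested were higher and none lower with U0126, or 13 and 1 with the replicate block, with a median of 0.24. The shares of all probe sets were 2.68% and 2.53% without the block and 4.12% and 5.05% with it. The 7 became 4 without SB202190 replicate 1 and 11 with quantile normalization. Inhibitors make up 5 of the 7, but they are common in the list. The inhibitors Sfrp1, Sfrp2, Sfrp4, Dkk2, Dkk3, Nkd2 and Axin2 did not pass without the block. Frzb, a secreted Wnt antagonist of cartilage, had 9.94, 9.89 and 10.26 with U0126, against 8.83, 9.02 and 8.98 with SB202190 and 9.09, 8.85 and 8.91 in DMSO, with SB202190 overlapping DMSO (log2 difference 1.08 ± 0.11 SE, adjusted p = 1.48e-05). Wif1, which binds Wnt proteins, had 7.59, 7.32 and 7.74 with U0126, against 6.59, 6.48 and 6.59 with SB202190 and 8.43, 7.97 and 8.08 in DMSO, below DMSO with each compound and more so with SB202190 (log2 difference 0.99 ± 0.15 SE, adjusted p = 0.000583). Nkd1, an intracellular inhibitor, differed by 1.0 (adjusted p = 9.95e-05), and Sfrp5, another secreted antagonist, by 0.84 (adjusted p = 0.000113). The other 3 were Dkk1 (0.46), the receptor Fzd2 (0.42) and the ligand Wnt5b (0.31), each with a call lost without 1 array (adjusted p up to 0.0555, 0.146 and 0.238).

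Among growth factors and receptors 3 of 32 tested were higher and 3 lower (3 and 4 with the block). Igfbp2, which binds insulin-like growth factors, had 9.76, 10.56 and 10.07 with U0126, against 7.88, 8.13 and 8.18 with SB202190 and 8.66, 8.96 and 8.68 in DMSO, with no overlap between treatments, and was 4.19-fold higher (log2 difference 2.07 ± 0.16 SE, adjusted p = 7.95e-07), while Igfbp6, which prefers IGF2, was 2.08-fold lower at 8.81, 8.75 and 8.58 with U0126, against 9.81, 9.78 and 9.71 with SB202190 (log2 difference -1.05 ± 0.11 SE, adjusted p = 1.83e-05). The EGF receptor ligand Ereg had 8.78, 8.56 and 8.53 with U0126, against 10.06, 9.77 and 9.30 with SB202190 and 9.91, 9.67 and 9.91 in DMSO, lower than DMSO with U0126 alone (log2 difference -1.08 ± 0.18 SE, adjusted p = 0.00113), and the receptor Egfr differed by -0.60 (adjusted p = 0.00403). Hbegf, a further ligand of that receptor, was the only 1 of 20 AU-rich inflammation and prostaglandin genes to be called, at 8.14, 8.10 and 8.20 with U0126, against 8.85, 8.87 and 8.72 with SB202190 (log2 difference -0.67 ± 0.13 SE, adjusted p = 0.00371), and Ptgs2 (0.55), Tnf (0.03) and Il1b (0.03), whose mRNAs p38 is known to stabilize, did not pass. With the block 4 of these 20 were lower and 1 higher. Against DMSO, 1 of the 20 was lower with U0126 and 2 with SB202190, beside 0.794% and 0.707% of all probe sets, and none was higher. The median differences of this list from DMSO were -0.18 for U0126 and -0.15 for SB202190. Fgfrl1 (0.52) and Igfbp7 (0.47, adjusted p up to 0.0655 without 1 array) were the other higher growth factor genes.

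Collagens outside cartilage were higher in 7 of 19 tested and lower in none (10 and 1 with the block), with a median of 0.26. The 7 became 4 without SB202190 replicate 1. Col8a2, a chain of the short-chain collagen VIII, had 10.16, 10.12 and 9.77 with U0126, against 9.18, 8.87 and 8.77 with SB202190 (log2 difference 1.08 ± 0.21 SE, adjusted p = 0.00482). Col8a1, its partner chain, had 10.75, 10.44 and 10.68 with U0126, against 9.57, 9.46 and 9.92 with SB202190 (log2 difference 0.97 ± 0.14 SE, adjusted p = 0.00047). Also higher were the basement membrane collagen Col15a1 (0.91, adjusted p = 0.000397) and the fibril-nucleating Col5a1 (0.48, adjusted p = 0.000939). Col1a1 (0.42), Col6a2 (0.39) and Col12a1 (0.45) lost their calls without 1 array (adjusted p up to 0.0651, 0.061 and 0.105).

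Of 22 extracellular proteases and inhibitors, 4 were higher and 1 lower (4 and 2 with the block). The protease genes Adamts12, Adamts4, an aggrecanase, and Mmp23 were higher by 0.76, 0.67 and 0.47 (adjusted p = 0.000361, 0.000307 and 0.00209), and the inhibitor Timp3 by 0.45, a call lost without 1 array (adjusted p up to 0.144). Plat, the tissue plasminogen activator, had 8.27, 8.27 and 8.48 with U0126, against 9.56, 9.56 and 9.75 with SB202190 and 9.24, 9.21 and 9.25 in DMSO, its U0126 arrays below and its SB202190 arrays above DMSO, and was 2.44-fold lower (log2 difference -1.28 ± 0.09 SE, adjusted p = 1.99e-07), although its other probe set was not called.

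Chemokine, interleukin and receptor genes were lower with U0126 in 7 of 23 tested and higher in 2, Cxcl14 (0.41) and Il18 (0.32), with a median of -0.19. The 7 became 8 with the block, 3 without SB202190 replicate 1 and 4 without U0126 replicate 3 or SB202190 replicate 3. Il1rn, the antagonist of the interleukin-1 receptor, had 7.85, 7.88 and 8.05 with U0126, against 8.91, 9.20 and 8.94 with SB202190 and 9.55, 9.57 and 9.60 in DMSO, with both compounds below DMSO and U0126 the lowest (log2 difference -1.09 ± 0.11 SE, adjusted p = 1.51e-05). Cxcl12, a chemokine that retains blood stem cells in marrow, had 10.23, 9.93 and 9.92 with U0126, against 10.86, 10.86 and 10.78 with SB202190 and 10.33, 9.97 and 9.77 in DMSO, the SB202190 arrays standing above the rest (log2 difference -0.81 ± 0.13 SE, adjusted p = 0.00121), while of its 2 other probe sets 1 was called the same way and 1 had the opposite sign. Osmr, the oncostatin M receptor, differed by -0.68 (adjusted p = 0.00635), and neither of its 2 other probe sets was called, 1 having the opposite sign. Ccl9 (-0.68), Lifr (-0.50), Il4ra (-0.50), Ccl3 (-0.33) and Il18 lost their calls without 1 array (adjusted p up to 0.116, 0.108, 0.134, 0.156 and 0.159). The U0126 mean of Ccl3 lay below the filter level. Of 20 interferon response genes 2 were lower, the GTPase Gbp2 (log2 difference -0.82 ± 0.09 SE, adjusted p = 3.24e-05) and the immunoproteasome subunit Psmb9 (-0.38, adjusted p up to 0.215 without 1 array), or 6 with the block.

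Regulators of fat cell formation gave 3 lower and 1 higher of 11 tested (5 and 1 with the block). Pparg, the receptor that commits cells to fat, had 7.87, 7.84 and 7.93 with U0126, against 8.43, 8.54 and 8.56 with SB202190 and 8.0, 8.04 and 7.91 in DMSO, with SB202190 above all others (log2 difference -0.63 ± 0.10 SE, adjusted p = 0.000595), and Cebpa and Cebpb differed by -0.62 and -0.58. Npr3, a clearance receptor of natriuretic peptides, was higher by 0.63. Without SB202190 replicate 1 only 1 was lower. The calls of Cebpa, Cebpb and Npr3 were lost without 1 array (adjusted p up to 0.0866, 0.0597 and 0.0618).

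Of 24 FOXO targets 2 were higher and 3 lower (3 and 8 with the block). The stress gene Gadd45a had 8.02, 7.94 and 8.17 with U0126, against 9.19, 9.06 and 9.09 with SB202190 and 8.42, 8.05 and 8.25 in DMSO, with U0126 overlapping DMSO and SB202190 above it (log2 difference -1.07 ± 0.12 SE, adjusted p = 2.19e-05), and Txnip, an inhibitor of glucose uptake, differed by -0.68 (adjusted p = 0.000511). The third lower gene was Bcl2l11 (-0.35, adjusted p up to 0.182 without 1 array), and the higher ones were Foxo4 (0.52, adjusted p = 0.000975) and Klf2 above. In glycolysis and hypoxia response, P4ha2 and P4ha1, prolyl hydroxylases that stabilize collagen, and the lactate exporter Slc16a3 were higher by 0.71, 0.54 and 0.63 (adjusted p = 0.000496, 0.00259 and 0.00017). In the same list of 22, where the block called 4 higher, Pfkp (-0.51) and Hk1 (-0.30) were lower, with calls lost without 1 array (adjusted p up to 0.0771 and 0.245).

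Among D cyclins and CDK inhibitors, 1 of 12 was higher and 2 lower, Cdkn1c (0.50), Cdkn2b (-0.67) and Rbl2 (-0.65), and all 3 calls were lost without 1 array (adjusted p up to 0.129, 0.0763 and 0.0599). The p53 targets held 1 higher, the cell cycle inhibitor Cdkn1a (0.50, adjusted p up to 0.199 without 1 array), and 1 lower, Perp (log2 difference -0.55 ± 0.07 SE, adjusted p = 9.94e-05), of 17, and the block added Aen (0.30) and Plk2 (-0.46). In the amino acid response 2 of 23 were higher (4 and 1 lower with the block), Chac1 (log2 difference 0.55 ± 0.10 SE, adjusted p = 0.00303) and Mthfd2 (0.40, adjusted p up to 0.0997 without 1 array).

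None of the 37 cell cycle and DNA replication genes of the list passed without the replicate block. Of these 37, 36 had negative differences with a median of -0.18, 0 were called by limma, 6 had an unadjusted p of 0.05 or less, all lower, and 5 were called lower with the block, Bub1 (-0.45), Mcm4 (-0.36), Mki67 (-0.34), Gins1 (-0.31) and Birc5 (-0.29). The U0126 and SB202190 arrays overlapped for Bub1, the checkpoint kinase with the largest difference, at 9.68, 9.02 and 9.12 with U0126, against 9.74, 9.62 and 9.80 with SB202190 (adjusted p = 0.191). Across all probe sets tested, 14.4% had an unadjusted p of 0.05 or less.

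Calls were also 0 for 20 genes of cholesterol synthesis and uptake, where 1 had an unadjusted p of 0.05 or less and the block called none, with Dhcr7 (-0.27) and Insig1 (-0.23) the widest. For 14 genes of fatty acid synthesis the unadjusted count was 2, both lower, and the block called 1, Acsl4 (-0.44, adjusted p = 0.00656), next to Elovl6 (-0.29). Ribosome biogenesis had 0 of 26 called in either fit, 1 with an unadjusted p of 0.05 or less, and differences between -0.19 (Ncl) and 0.23 (Bop1). The aryl hydrocarbon receptor targets had 0 of 7 called, 2 by unadjusted p and 2 with the block, Ahrr (0.50) and Nfe2l2 (-0.36).

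**Figure D4:**
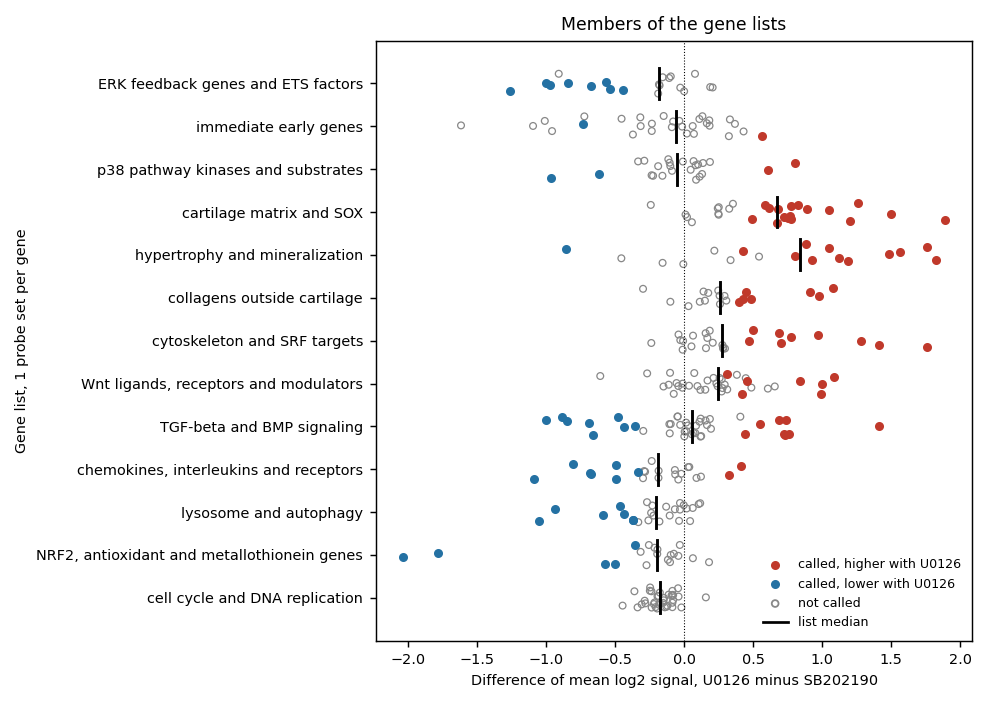
Difference of the mean log2 signal, U0126 minus SB202190 (x axis), for the members of 13 gene lists (rows, 1 probe set per gene), with filled red and blue points for members called higher and lower, open points for the rest and a bar at the list median. The medians of hypertrophy (0.84) and cartilage matrix (0.67) lie farthest from 0 of the 13.

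The cultures carried chondrocyte markers at high level in both treatments. All 11 markers had positive differences, 8 were called (5 without U0126 replicate 3 or SB202190 replicate 1 or 2), and their summed linear signal was 85302 to 97766 with U0126, 57301 to 67811 with SB202190 and 65509 to 69093 in DMSO. These 11 genes are all members of the cartilage matrix list above, so their counts repeat part of that result. Fibroblast and perichondrium markers were called in 3 of 17, with Tnmd, a tendon protein, at 11.26, 10.99 and 10.81 with U0126, against 10.07, 10.06 and 9.88 with SB202190 (log2 difference 1.02 ± 0.15 SE, adjusted p = 0.000418), Col1a1 as above and Fap, a surface protease, at -0.61 (adjusted p = 0.000646), or 5 higher and 3 lower with the block, and their sums were 71504 to 81330 with U0126, 66110 to 68305 with SB202190 and 64898 to 79506 in DMSO. Skeletal muscle markers had 0 of 24 called by limma, 4 with an unadjusted p of 0.05 or less and 2 with the block (Tnnt3, 0.91, and Cav3, 0.38), with sums of 4434 to 7372 with U0126, 4841 to 7401 with SB202190 and 3944 to 6798 in DMSO, and Mylpf (-0.40) ran the other way from Tnnt3. Of their 28 members, Myf5, Myf6, Myh2 and Neb were below the tested level.

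Osteoclast markers were called in 2 of 9, with Acp5, the acid phosphatase, lower at 7.38, 7.47 and 7.50 with U0126, against 8.07, 8.01 and 8.36 with SB202190 (log2 difference -0.69 ± 0.09 SE, adjusted p = 0.000184) and Nfatc1, which directs osteoclast formation, higher (log2 difference 0.44 ± 0.07 SE, adjusted p = 0.000719), with sums of 2993 to 3221 with U0126, 2849 to 3045 with SB202190 and 3061 to 3108 in DMSO. Among macrophage markers Cd68 was lower (log2 difference -0.72 ± 0.10 SE, adjusted p = 0.000336) and C1qc higher (0.39, adjusted p up to 0.276 without 1 array). The endothelial Tek, whose U0126 mean of 5.51 lay below the filter level, was at least 1.24-fold lower counted from that level. Its full difference of -0.44, which uses the values below that level, had an adjusted p of 0.0232 (limma), and up to 0.131 without 1 array. Pecam1, Cdh5, Tie1 and Vwf were below the tested level. The summed endothelial signals were 1514 to 1666 with U0126, 1388 to 1538 with SB202190 and 1497 to 1691 in DMSO. Erythroid markers had 0 of 3 called, with none by unadjusted p and none with the block, Alas2 (0.20) and Slc4a1 (0.06) being the widest, and sums of 378 to 397 with U0126, 364 to 396 with SB202190 and 372 to 413 in DMSO.

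Epithelial markers gave 3 lower and 1 higher of 11. Krt18, a keratin of simple epithelia, had 7.59, 7.32 and 7.33 with U0126, against 8.60, 8.60 and 8.57 with SB202190 and 8.98, 8.67 and 8.77 in DMSO, U0126 below both others (log2 difference -1.18 ± 0.10 SE, adjusted p = 1.81e-06), and Krt19 differed by -0.85 (adjusted p = 0.00303). Trp63 was higher (0.80, adjusted p up to 0.0562 without 1 array), with 1 of its 3 other probe sets of opposite sign. Cdh1 was below the tested level, and the sums were 3311 to 3576 with U0126, 3756 to 3898 with SB202190 and 3904 to 4250 in DMSO. The part of other cell types in the results above was not tested.

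Among all genes, the 15 largest increases included Ucma, Igfbp2, Fmod, Ibsp, Panx3, Cnn1, Col10a1 and Ihh, described above, and further secreted proteins. C1qtnf3, a secreted protein made by growing cartilage, had 11.91, 11.84 and 11.98 with U0126, against 9.09, 9.50 and 9.40 with SB202190 and 10.83, 10.66 and 10.74 in DMSO, with no 2 treatments overlapping. It was 5.98-fold higher with U0126 than with SB202190 (log2 difference 2.58 ± 0.13 SE, adjusted p = 1.3e-08), with differences from DMSO of 1.17 for U0126 minus DMSO (adjusted p = 0.000107) and -1.41 for SB202190 minus DMSO (adjusted p = 2.85e-05). Smpd3, the neutral sphingomyelinase needed for cartilage mineralization in mice, had 10.97, 10.95 and 11.42 with U0126, against 8.34, 8.48 and 9.32 with SB202190 and 9.69, 9.65 and 10.20 in DMSO and was 5.27-fold higher (log2 difference 2.40 ± 0.28 SE, adjusted p = 5.99e-05), its 2 other probe sets being called the same way.

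Penk, the precursor of enkephalin peptides, had 12.42, 12.43 and 12.47 with U0126, against 10.58, 10.65 and 10.59 with SB202190 and 11.73, 11.71 and 11.47 in DMSO (log2 difference 1.83 ± 0.10 SE, adjusted p = 1.36e-08). Eln, elastin, had 11.03, 11.18 and 11.07 with U0126, against 9.57, 9.53 and 9.56 with SB202190 and 9.94, 10.14 and 10.08 in DMSO (log2 difference 1.54 ± 0.09 SE, adjusted p = 3.07e-08). Both genes placed DMSO between the compounds without overlap, as did Kcnk2, a potassium channel (log2 difference 1.63 ± 0.13 SE, adjusted p = 9.27e-07), and Smoc2, a matricellular protein (log2 difference 1.52 ± 0.09 SE, adjusted p = 4.82e-08). Fam89a had 8.34, 8.51 and 9.30 with U0126, against 6.67, 6.91 and 7.37 with SB202190 and did not overlap (log2 difference 1.73 ± 0.21 SE, adjusted p = 9.36e-05).

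The largest decrease belonged to Gpnmb, a transmembrane glycoprotein of lysosomes and bone cells, with 8.54, 8.55 and 8.53 with U0126, against 10.71, 10.88 and 10.98 with SB202190 and 9.02, 8.95 and 9.12 in DMSO. SB202190 stood 1.82 above DMSO (adjusted p = 2.59e-08) and U0126 slightly below it (-0.49, adjusted p = 0.00772), which left it 4.98-fold lower (log2 difference -2.32 ± 0.09 SE, adjusted p = 6.07e-10). Esm1, a secreted proteoglycan, had 4.45, 4.55 and 4.49 with U0126, against 7.17, 5.80 and 7.02 with SB202190 and 5.26, 4.94 and 5.27 in DMSO. Its U0126 mean of 4.50 lay below the filter level, so that it was tested through SB202190 alone and its place among the largest decreases rests on a value below that level. Counted from the filter level Esm1 was at least 2.03-fold lower. Its limma adjusted p of 2.64e-05 belongs to the full difference of -2.17, which uses the values below that level. Sned1, a matrix protein, had 9.64, 9.45 and 9.52 with U0126, against 11.09, 11.27 and 10.89 with SB202190 and 10.28, 10.25 and 10.16 in DMSO (log2 difference -1.54 ± 0.11 SE, adjusted p = 1.41e-07), again with DMSO between the compounds.

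In Klk10 and Xdh SB202190 overlapped DMSO and U0126 lay below both. Klk10, a secreted protease, had 9.35, 8.89 and 9.42 with U0126, against 10.76, 10.23 and 10.99 with SB202190 and 10.91, 10.25 and 10.75 in DMSO (log2 difference -1.44 ± 0.20 SE, adjusted p = 0.000271). Xdh, which makes uric acid, had 6.43, 6.68 and 6.73 with U0126, against 7.87, 7.86 and 8.04 with SB202190 and 7.89, 7.80 and 7.90 in DMSO (log2 difference -1.31 ± 0.11 SE, adjusted p = 1.17e-06). Nptx1, a neuronal pentraxin, had 5.85, 5.50 and 5.63 with U0126, against 7.30, 7.35 and 7.21 with SB202190 and 7.93, 7.53 and 7.19 in DMSO (log2 difference -1.63 ± 0.20 SE, adjusted p = 7.82e-05), although its other probe set was not called. The adhesion protein gene Nrcam (log2 difference -1.76 ± 0.12 SE, adjusted p = 1.98e-07) had 1 of its 2 other probe sets called the same way and 1 with the opposite sign.

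Cd34, Clip4, Cytl1, Itih2 and Lgr6 completed the 15 largest decreases, with Mt1, Mt2 and Plat. Cd34, a surface sialomucin, had 7.21, 6.74 and 6.43 with U0126, against 8.25, 8.10 and 7.96 with SB202190 (log2 difference -1.31 ± 0.17 SE, adjusted p = 0.000158). Clip4, a microtubule-binding protein, had 6.87, 6.56 and 6.82 with U0126, against 8.32, 8.41 and 8.61 with SB202190 (log2 difference -1.69 ± 0.12 SE, adjusted p = 2.85e-07). The next 2 genes encode secreted proteins and the last a receptor. Cytl1, a cytokine-like protein of chondrocytes, had 10.39, 10.84 and 11.16 with U0126, against 12.04, 12.18 and 12.48 with SB202190 (log2 difference -1.43 ± 0.16 SE, adjusted p = 3.5e-05). Itih2, which binds hyaluronan, had 8.30, 8.24 and 8.20 with U0126, against 9.71, 9.54 and 9.63 with SB202190 (log2 difference -1.38 ± 0.09 SE, adjusted p = 6.74e-08). Lgr6, a receptor of R-spondins, had 6.95, 6.73 and 6.98 with U0126, against 8.23, 8.43 and 8.15 with SB202190 (log2 difference -1.39 ± 0.13 SE, adjusted p = 8.2e-06). In each of them all U0126 arrays lay below all SB202190 arrays, which the rule for naming them required.

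Other probe sets of a gene did not always bear the same call. None was called for Hbegf, Lgr6, Txnip, Adamts4, Cebpb, Foxo4, Pfkp, Mthfd2, Cdkn1a, Rbl2, Col1a1, Il17rd, Fosl1, Runx3, Inhba, Smad7, Wnt5b, Igfbp7, Fhl1 and Hk1. For Lifr, Ltbp1, Ctsa and Srxn1 none was called and 1 had the opposite sign. Of the 4 other probe sets of Spred2, 1 was called the same way and 3 had the opposite sign.

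Set side by side against the shared DMSO arrays, the direct differences had several forms. For Mt1, Mt2, Cnn1, Myl9, Fmod, C1qtnf3 and Penk each compound passed against DMSO in opposite directions. For F13a1 both values lay below DMSO, and the SB202190 value passed, whereas for Map2k6, Mknk2 and Id2 SB202190 alone passed, and for Etv5, Fosl1 and Ank U0126 alone. For Col10a1, Panx3, Dusp6 and Spry2 neither comparison with DMSO passed, while the direct comparison did. Whether a compound acted through its named kinase was not tested, since no kinase activity and no second inhibitor of either kinase was measured.

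**Figure D5:**
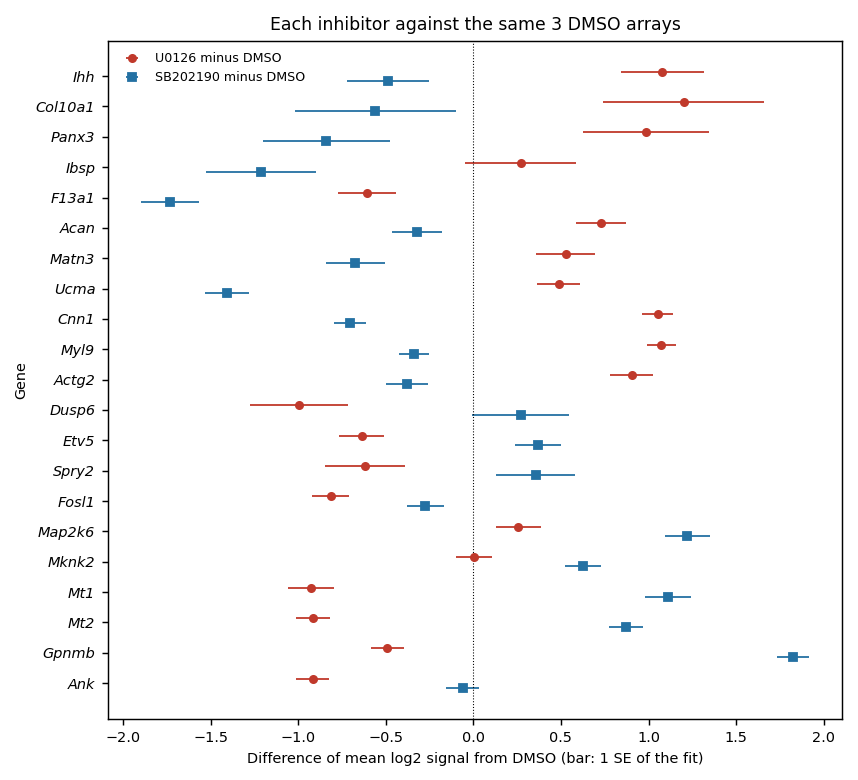
Difference of the mean log2 signal from the same 3 DMSO arrays (x axis) for 21 genes (rows), with circles for U0126 and squares for SB202190 and bars of 1 SE of the linear model. The 2 symbols lie on opposite sides of 0 for most of the hypertrophy and matrix genes shown, as for Ucma at 0.49 and -1.41, and on the same side for F13a1 at -0.61 and -1.73.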

How the data were processed

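RNA of 15 chondrocyte cultures was hybridized to Affymetrix mouse arrays with 45101 probe sets, 1 array a culture. The deposited values are log2 signals per probe set that the authors background-corrected and normalized between arrays. The methods name GC-RMA and RMAExpress, and which of them made these values is not settled, so low signals and small fold changes may depend on a step that could not be checked. Scanner files were not used here. Precision is limited by the number of arrays.

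After removal of 64 array controls, 45037 probe sets were kept, of which 34945 carried 1 gene symbol, 932 several and 9160 none, and names were given only from the first kind. Probe sets with a mean signal of at least 50 with U0126 or with SB202190 were tested. Differences were fitted with limma 3.58.1 in R 4.3.3, with 1 mean per treatment over all 15 arrays (10 residual degrees of freedom), and Benjamini-Hochberg adjustment covered all 34492 tested probe sets. A probe set was called at an adjusted p of 0.05. The fit was tested on simulated data. An exact permutation test of 3 against 3 arrays cannot give a p below 0.1 and was not used.

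Replicate numbers come from the sample titles. Deviations from the treatment means of arrays with the same number correlated at 0.253, 0.228 and 0.463, all above 0.1, so the numbers pair the arrays, and counts from a fit with the number as a block are given where they differ. The labels do not say whether cultures of the same number were from the same animals, and p-values measure the spread between these arrays.

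A gene in a list was represented by its brightest probe set. Of 778 genes in the lists, 49 were not matched to a probe set and are not analysed here. The members and lists were chosen with earlier results of these data known, as was the comparison itself. Genes named are the 15 largest called changes in each direction whose arrays do not overlap, and up to 4 called members of each list. Where a list had none called, its 2 members with the widest difference are named. The MEK and p38 kinase genes and the 4 genes the study follows up are named as well. Other members named were chosen after their values were seen. Alternatives were the block, the 6 arrays alone, other signal filters, quantile normalization, median centring, a trended and robust prior, the mean of a gene's probe sets and leaving out each array in turn. The fits without Trichostatin A and of the 6 arrays with the block were added after seeing the data. Promoter windows are RefSeq sequences of GRCm38.p6.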

Additional observations from a re-analysis of the deposited data

How the results depend on the processing

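The replicate block raised the probe sets called higher with U0126 to 1421, against 926 without the block, and those called lower to 1742, against 874. The 6 arrays alone with the block gave 1796 and 2287. Quantile normalization gave 1286 and 1288 and median centring 766 and 821, with 51.4% of calls higher without the block, 44.9% with the block and 62.7% without U0126 replicate 2. Leaving out 1 array gave between 572 and 811 higher and between 477 and 789 lower. The higher count moved most without U0126 replicate 3 (579) or SB202190 replicate 1 (572). The lower count was 482 without U0126 replicate 2, 515 without U0126 replicate 3, 477 without SB202190 replicate 1, 563 without SB202190 replicate 2 and 531 without SB202190 replicate 3. These fits have fewer samples. Between 5 and 9 ERK feedback genes were called lower in such fits (5 without U0126 replicate 3 or SB202190 replicate 1), between 11 and 16 cartilage matrix genes higher, and between 8 and 11 hypertrophy genes higher.

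Of 111 called named genes, 87 kept their call in every alternative, and 24 lost it without at least 1 array. Of these, Col10a1, Klf2, Col11a2, Gclc, Cdkn1c, Cdkn1a and C1qc also lost it in a fit of all the U0126 and SB202190 arrays with another filter, scaling, prior or set of other arrays, and Cdkn1a and Col1a1 on the mean of all probe sets of the gene. No named gene changed sign while called. The block gave calls to Egr1, Fos and Dusp5 among others, given above, and ended no call of a list member. The median SE of a difference was 0.10 with 3 arrays a treatment, which limits what small differences can pass.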
